A study of Mus musculus with 12 samples.

Results

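The 4 B-cell acute lymphoblastic leukaemias (B-ALL) with the PAX5 P80R mutation are compared here with one another. They are 4 of the 12 RNA-seq libraries of the study, 1 from each of the primary recipients numbered 1300, 1301, 1302 and 1308. The genes compared are the 10194 of 21885 in the table whose mean over the 4 leukaemias was at least 100, a filter on level that made no use of differences between leukaemias. It does admit genes that are high in 1 leukaemia and near 0 in the others, and such genes had to vary. Values are scaled read counts as the authors deposited them. Wherever a gene has 4 values in a row, they belong to recipients 1300, 1301, 1302 and 1308 in that order.

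The leukaemia cells were sorted as GFP-positive cells and carry the genotype PAX5 P80R. The references were 4 libraries of Pax5 KO fetal liver cells at the CLP and pre-pro-B stage (Pax5-/-) and 4 of Pax5 WT fetal liver cells at the pro-B and pre-BI stage (Pax5+/+). All cells were mouse cells purified by cell sorting. How the mutant was delivered, whether the leukaemia cells also kept intact Pax5 alleles, whether the 4 recipients received cells of 1 donor pool, and strain and age are not given here. Each recipient gave 1 library, so a difference between leukaemias and a difference between libraries cannot be told apart. Whether the 4 fetal liver libraries of a group came from separate animals is not given either, and the spread within those groups may be technical.

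Pax5 is the transcription factor that commits lymphoid progenitors to the B lineage. It activates genes of the B-cell receptor pathway and represses genes of other lineages and of uncommitted progenitors, with Ebf1 and E2A acting beside it. P80R is a recurrent missense mutation in the DNA-binding paired domain of PAX5 that defines a subtype of human B-ALL, in which activating mutations of the RAS and JAK-STAT pathways often accompany it. Leukaemias that begin from the same initiating mutation can acquire different secondary mutations.

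Read depth was similar in the 4 leukaemias, 24914250 to 29386256 reads per library, and lower than in the fetal liver groups (33191950 to 43513852). All 9 B-lineage markers named here (Cd79a, Cd79b, Ebf1, Pax5, Vpreb1, Igll1, Cd24a, Ptprc and Blnk) were detected in each leukaemia, and Cd24a, a surface marker of B-cell progenitors, was at 60062, 49867, 16038 and 23548. Markers of other blood cells set recipients 1300 and 1308 apart. The granulocyte and monocyte list of 21 genes summed to 173080, 16869, 7203 and 294790 in the leukaemias, against 11324 to 12096 in Pax5 KO and 608 to 871 in Pax5 WT. The erythroid list of 20 genes summed to 448380, 63312, 43500 and 1100000, against 30529 to 32898 in Pax5 KO and 25239 to 30755 in Pax5 WT. All 15 erythroid genes that passed the filter were detected in each leukaemia, while the embryonic globins Hba-x and Hbb-bh1 were at 0 in all 4. The plasmacytoid dendritic list of 14 genes summed to 20465, 17244, 23423 and 261090, against 20350 to 21553 in Pax5 KO and 16185 to 17456 in Pax5 WT. The macrophage list of 18 genes summed to 8666, 12519, 10145 and 62081, against 2245 to 2596 in Pax5 KO and 117 to 164 in Pax5 WT. Both were highest in 1308, and in the plasmacytoid list the other 3 leukaemias lay near the fetal liver groups. Leukaemia 1308 had the highest median level in 11 of the 12 lists for other cell types. Only members that passed the filter enter these medians, and a member can pass through its level in 1308 alone. Of the 14 hepatocyte markers, 10, 10, 10 and 9 were at 0 in the 4 leukaemias. Where 1300 or 1308 stands apart in the results, the part of these other cells was not tested, and counts over all genes are repeated without both recipients.

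Differences between the leukaemias reached most genes. The SD of a gene's log2 value (after adding 1) had a median of 0.41 over the 4 leukaemias, against 0.10 over the same genes in Pax5 KO and 0.14 in Pax5 WT, so the median was 4.17 and 2.92 times as large. The SD that counting error alone would give had a median of 0.04 in the leukaemias. In 9292 genes (91.2%) the SD over the leukaemias exceeded that of both fetal liver groups, and in 179 it was below both. The highest leukaemia was at least 4-fold above the lowest (a range of at least 2 log2) in 1723 genes, 16.9% of those compared, against 138 (1.35%) in Pax5 KO and 258 (2.53%) in Pax5 WT. Genes with a mean of 100 to 110 had a median SD of 1.23 (106 genes), and genes just below the filter, with a mean of 90 to 100, also 1.23 (125 genes).

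Part of this count comes from genes that the fetal cells hardly expressed. Among 8983 genes with a mean of at least 100 in each of the 3 groups, the median SD was 0.38 in the leukaemias, 0.09 in Pax5 KO and 0.13 in Pax5 WT, and 824 genes (9.17%) ranged at least 4-fold over the leukaemias. Among 227 genes with a mean under 10 in both fetal liver groups, the median SD was 1.93 and 213 ranged at least 4-fold. Without recipients 1300 and 1308, the median SD of the remaining pair was 0.31, and 349 genes differed at least 4-fold between them. Without 1308 alone, 967 genes ranged at least 4-fold over the other 3 leukaemias, and the median SD was 0.37. Leaving out all members of the lists for other cell types lowered the count of 1723 to 1625. This removed listed markers only and kept 10083 genes, so it does not measure the part of other cells, which was not tested. The biological coefficient of variation, estimated by edgeR from the recovered reads, was 56.8% in the leukaemias, 8.21% in Pax5 KO and 11.9% in Pax5 WT.

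**Figure D1:**
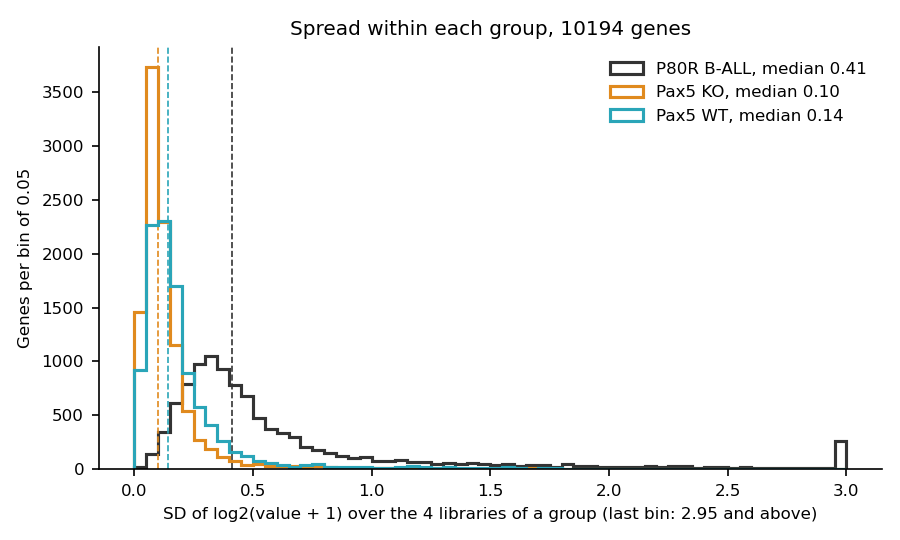
Distribution of the SD of log2(value + 1) over 4 libraries for the 10194 genes with a mean of at least 100 over the leukaemias, in the P80R leukaemias, Pax5 KO and Pax5 WT; the x axis is the SD in log2 units and the y axis the number of genes per bin of 0.05. The curve of the leukaemias lies to the right, with a median of 0.41 against 0.10 and 0.14.

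The spread was tested gene by gene with limma on the absolute deviations of each library from its group mean, fitted to all 12 libraries. Deviations were larger in the leukaemias than in Pax5 WT for 3841 of 10194 genes (37.7% at an adjusted p under 0.05) and smaller for 11 (0.108%). They were larger than in Pax5 KO for 5448 (53.4%) and smaller for 7 (0.0687%). The filter on the mean of the leukaemias bears on the second kind of call: with no filter on low values, 644 and 795 of 16648 genes were called smaller, against Pax5 WT and Pax5 KO in that order. Without 1300 and 1308 they numbered 148 and 93 of 9737, and the genes called wider 5344 and 5829. With only a pair of leukaemias left, both lie equally far from their mean. Their deviations then have no spread within the group, so these counts cannot be set against the others. The 2 comparisons share the leukaemia libraries, and 3448 genes were called wider in both. The calls depend on the spread that the fit shares across groups: with only the 8 libraries of a pair, 0 genes passed in either comparison, while 4154 and 5491 had an unadjusted p under 0.05. Without Pax5 WT replicate 1, 2 or 3 the first count was 1860, 1451 or 1612, and without Pax5 KO replicate 2, 3 or 4 the second was 3025, 2874 or 2943. On simulated data with no gene wider, the same test called 137 and 105 of 10194 genes, wider or narrower. The simulation gave every gene the same spread, unlike these data, so it does not estimate the false calls among the counts above. Calls for single genes are therefore given as descriptions of the spread in these libraries.

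Over whole libraries, every pair of leukaemias differed more than any pair of fetal liver libraries of the same group. Pairs of a Pax5 KO with a Pax5 WT library were not compared. Rank correlations between 2 leukaemias over the 10194 genes were 0.849 to 0.934, against 0.988 to 0.998 between fetal liver libraries of a group. By the number of genes that differed at least 4-fold, 1301 and 1302 were the closest pair, with 453 genes (4.44%); by the median absolute difference 1300 and 1301 were, at 0.425, against 0.454 for 1301 and 1302. Leukaemia 1300 differed at least 4-fold from 1301 in 684 genes (6.71%) and from 1302 in 765 (7.5%). The 3 pairs with 1308 had the highest counts, with 901 genes (8.84%) against 1300, 923 (9.05%) against 1302 and 1032 (10.1%) against 1301. In the fetal liver groups 47 to 111 genes differed this much within a pair. The median absolute difference of a leukaemia from the mean of the other 3 was 0.352, 0.397, 0.374 and 0.423, with a mean of 0.386 ± 0.031 (SD, n = 4), against 0.090 ± 0.015 in Pax5 KO and 0.126 ± 0.053 in Pax5 WT. All 4 leukaemias lay above all 8 fetal liver libraries (exact two-sided permutation test, p = 0.0286 in both comparisons, the smallest that 4 against 4 allows). This measure was added after the data were seen, and its 4 values in a group share their means.

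Where 1 leukaemia or a pair was separated from the rest, recipient 1308 was most often on the high side. In 906 genes (8.89%) the largest gap between neighbouring leukaemias was at least 4-fold, against 55 genes (0.54%) in Pax5 KO and 115 (1.13%) in Pax5 WT. Leukaemia 1308 alone was high in 287 of these genes (2.82% of all compared), and 1300 and 1308 together in 133 (1.3%). In 26 and 34 of them the gene was in a list for another cell type. Few of all genes compared are in such a list: 10083 of 10194 are in none. Leukaemia 1300 stood alone low in 102 genes (1%), 1301 in 84 (0.824%), 1302 in 73 (0.716%) and 1308 in 48 (0.471%). Leukaemia 1300 stood alone high in 65 genes (0.638%), 1302 in 20 (0.196%) and 1301 in 10 (0.0981%). Of the other pairings, 1302 and 1308 were high together in 35 genes (0.343%), 1301 and 1302 in 19 (0.186%), 1301 and 1308 in 15 (0.147%), 1300 and 1301 in 13 (0.128%) and 1300 and 1302 in 2 (0.0196%).

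**Figure D2:**
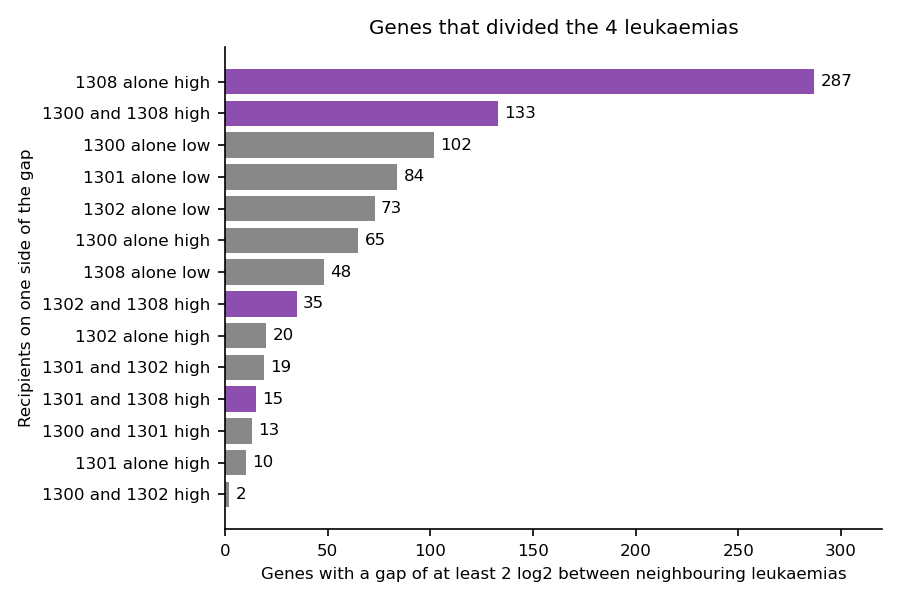
Number of genes, out of 10194, in which the largest gap between neighbouring leukaemias was at least 2 log2, by which leukaemia or pair lay on 1 side of the gap. The bars for 1308 alone high (287 genes) and for 1300 and 1308 high (133 genes) are the longest.

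Some genes were detected in 1 leukaemia and at 0 in another. Cdh17, which encodes a cadherin known from gut epithelium and also described in B-lineage progenitors (ENSMUSG00000028217), had the largest SD of all genes compared, 6.91 log2. It was at 9627, 0, 14583 and 20014, against 364 ± 40 in Pax5 KO and 52 ± 11.7 in Pax5 WT (mean ± SD, n = 4, as for all fetal liver values below). Leukaemia 1301 held no read of it, and the other 3 lay above every fetal liver library. Tnfsf4, which encodes OX40 ligand, was at 3053, 0, 0 and 0, so it was detected only in 1300 among the leukaemias. Gsdmc4, a gasdermin gene, was at 0, 3927, 0 and 0, and Ly6k at 2.63, 9.84, 0 and 16892. Gsdmc4 is 1 of several similar neighbouring genes, and the handling of reads that match more than 1 gene is not given. A count of 0 allows up to 3 reads, which is far below the levels in the leukaemias that expressed these genes.

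Other genes separated a single leukaemia on the low side from the rest. Rpgr, a gene of the primary cilium, was at 843, 885, 789 and 11.1, with 655 ± 74.5 in Pax5 KO and 889.6 ± 104 in Pax5 WT. Only 1308 was low, and the other 3 lay between the lowest and the highest fetal liver library. Nmral1, an NADPH sensor gene, was at 2131, 14.8, 3964 and 4389.6, low in 1301 alone, with 2941 ± 169 and 3401 ± 258 in the fetal liver groups. Mpp7, a polarity scaffold gene, was at 1459, 540.2, 0 and 621, and Lysmd4 at 344, 415, 0 and 161, both at 0 in 1302 alone. Siglecg, an inhibitory receptor of B cells, was at 0, 206, 651 and 1759, and Phf11b at 7.89, 1087, 1435 and 1729.8, both lowest in 1300.

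At the other end, the 10 genes with the smallest SD among those with a mean of at least 1000 were nearly equal in all 4 leukaemias. Mta2, a subunit of the NuRD chromatin complex, was at 9298, 9168, 9305 and 9212 (SD 0.01 log2). Acaa2, a thiolase of fatty acid oxidation, was at 5109, 4964, 5019 and 5018. These values differ between leukaemias by a few percent, and Mta2 and Acaa2 lay outside the range of Pax5 WT (12790 to 15236 and 2993 to 3632). Hnrnpf, Crkl, Hltf, Vapb, Crcp, Mkln1 and Fndc3a were also in this group.

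Pax5 itself (ENSMUSG00000014030) was at 847, 1146, 1316 and 255, against 229.9 to 267 in Pax5 KO and 6194 to 7316 in Pax5 WT. All 4 leukaemias were below Pax5 WT, and 1308 lay within the range of Pax5 KO while the other 3 lay above it. Reads of mutant and endogenous Pax5 were not separated. Ebf1, the factor that acts with Pax5 in early B cells (ENSMUSG00000057098), was at 6436, 7632, 11594 and 2333, with 5988 ± 438 in Pax5 KO and 18818 ± 980.4 in Pax5 WT. It had the same order as Pax5, lowest in 1308 and highest in 1302. The deviations of Pax5 were larger in the leukaemias than in Pax5 WT by 0.79 ± 0.24 log2 (SE, limma, adjusted p = 0.0218) and than in Pax5 KO by 0.81 ± 0.24 (adjusted p = 0.0164). In bulk samples, fewer cells of a type and less RNA per cell cannot be told apart.

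Genes that Pax5 is known to activate varied widely, and no leukaemia was highest in most of them. The 18 genes of this list that passed the filter had a median SD of 1.37 log2, against 0.14 in Pax5 KO, 0.11 in Pax5 WT and 0.41 over all genes in the leukaemias. Of them 13 ranged at least 4-fold (16.9% of all genes did), 16 were called wider than in Pax5 WT (37.7% of all genes) and 15 than in Pax5 KO (53.4%). Cd79a, which passes on the signal of the antigen receptor, was at 14008, 7484, 19767 and 10039, above Pax5 KO (2485 ± 116) and below Pax5 WT (45783 ± 3517) in every leukaemia.

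Cd72, an inhibitory coreceptor, was at 3384, 81.2, 4.96 and 1633, close to Pax5 WT (3544 ± 298) in 1300 and near 0 in 1302. Lef1, a transcription factor of early lymphocytes, was at 301, 2064, 1683 and 67.8, and Blnk, the adaptor that links the receptor to its kinases, at 4806, 3491, 1278 and 9723. Lef1 was lowest in 1308 and Blnk lowest in 1302. The receptor for the survival factor BAFF, Tnfrsf13c, was at 778, 3582, 4336 and 1194, higher in 1301 and 1302 than in 1300 and 1308. Plekha2 and Pou2af1 had the smallest spread of the list, with SDs of 0.25 and 0.50 log2.

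**Figure D3:**
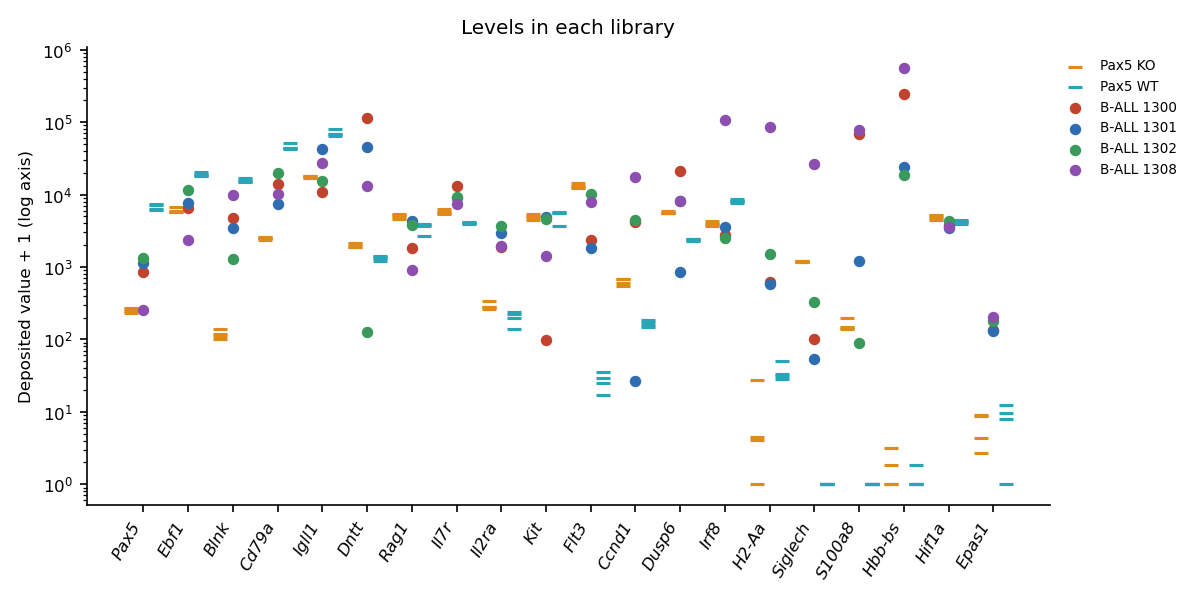
Level of 20 genes in all 12 libraries (value + 1, log axis), with the 4 leukaemias named by recipient and the Pax5 KO and Pax5 WT libraries beside them. For genes such as Kit, Dntt, Ccnd1 and H2-Aa the leukaemias spread over orders of magnitude, while the fetal liver libraries of each group lie close together; Hif1a and Il7r vary little.

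The pre-B-cell receptor uses a surrogate light chain made of Igll1 and the Vpreb proteins. The 17 genes of the receptor and its signalling had a median SD of 0.77 log2. Of them 6 (35.3%) ranged at least 4-fold, against 16.9% of all genes. Igll1 was at 10811, 42896, 15583 and 27074, Vpreb1 at 17247, 37185, 21052 and 21904 and Vpreb2 at 2829, 56213, 27177 and 4668. All 3 were highest in 1301 and lowest in 1300, and Vpreb2 ranged the most. Vpreb1 and Vpreb2 are near-identical in sequence, so their separate values are uncertain. Vpreb3, a chaperone of the receptor, was at 4126, 8591, 12228 and 8588, above 24.7 ± 12.7 in Pax5 KO in all 4. Rasgrp1, which links antigen receptors to RAS, was at 1.31, 447, 1324 and 206, with 92.6 ± 31.4 in Pax5 KO and 1458 ± 276 in Pax5 WT. It was close to 0 in 1300 and close to Pax5 WT in 1302. The kinase genes Syk (SD 0.31 log2) and Btk (SD 0.37) varied little.

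Among genes of V(D)J recombination, the enzyme that adds nucleotides to the joins stood apart. Dntt, which encodes terminal transferase (ENSMUSG00000025014), was at 115930, 45518, 127 and 12925, against 2012 ± 134 in Pax5 KO and 1344 ± 85.4 in Pax5 WT. The levels in 1300, 1301 and 1308 were above every fetal liver library, and that in 1302 was below every one. The deviations of Dntt were larger than in Pax5 WT by 3.53 ± 0.95 log2 (SE, limma, adjusted p = 0.014). The recombinase genes Rag1, at 1855, 4323, 3857 and 911, and Rag2, at 1639.5, 3273, 5589.9 and 530.0, were lowest in 1308. The 13 genes of the list had a median SD of 0.58 log2. Dntt, Rag1 and Rag2 were the 3 (23.1%) that ranged at least 4-fold, against 16.9% of all genes.

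Receptors of early progenitors differed strongly between leukaemias. Kit, the receptor for stem cell factor (ENSMUSG00000005672), was at 98.6, 4825, 4554 and 1402, against 4937 ± 418 in Pax5 KO and 5110.1 ± 972 in Pax5 WT. Leukaemias 1301 and 1302 were close to both fetal liver groups, 1308 was lower and 1300 was lowest. Flt3, a receptor that Pax5 is known to repress, was at 2374, 1848, 10056 and 7957, with 13184 ± 815 in Pax5 KO and 25.6 ± 7.68 in Pax5 WT. All 4 leukaemias were above Pax5 WT and below Pax5 KO, with 1302 and 1308 nearer to Pax5 KO. Ly6a, which encodes the stem cell antigen Sca-1, was at 101, 7373, 7374 and 36198, lowest in 1300. The 16 Pax5-repressed genes that passed the filter had a median SD of 1.29, and 10 (62.5%) ranged at least 4-fold, against 16.9% of all genes. Among the 16, 1308 was highest in 9 and 1300 lowest in 9. Such counts of list members, here and below, are given without the share over all genes. They describe a list and do not set it apart from other genes.

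In that list Cd28, a costimulatory receptor of T cells, was at 4622, 224, 55.8 and 3490.1, high in 1300 and 1308. Cd44, an adhesion receptor, was at 327, 177, 3042 and 5187, high in 1302 and 1308. Ly6d, a surface marker of B-cell progenitors, was at 413, 38379, 17834 and 105190, low only in 1300. Lmo2 (16771, 4374, 5141 and 9614) and Notch1 (774, 1563, 2036 and 844) varied less, and Notch1 was below all Pax5 KO libraries (9586 to 11074) in each leukaemia.

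Feedback genes of the RAS and MAPK pathway separated 1301 from the other leukaemias. These genes are switched on by ERK signalling and encode phosphatases and Sprouty proteins that dampen it, and their levels are often read as a sign of pathway output. The 15 genes of the list that passed the filter had a median SD of 1.71 log2, against 0.10 in Pax5 KO and 0.21 in Pax5 WT. Of them 11 (73.3%) ranged at least 4-fold, against 16.9% of all genes. The median deviation of the list from the mean of the 4 leukaemias was 1.12, -1.93, 0.36 and 0.60 log2. Leukaemia 1301 was lowest in 10 of the 15 genes and 1300 highest in 8. The list had 12 of its 15 genes called wider than in Pax5 WT (37.7% of all genes) and 14 than in Pax5 KO (53.4%).

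Dusp6, the ERK phosphatase, was at 21303, 853, 8026 and 8134, against 5675 ± 134 in Pax5 KO and 2389 ± 82.2 in Pax5 WT. It was above both groups in 1300, 1302 and 1308 and below both in 1301. Spred1, an inhibitor of RAS activation, was at 8075, 352, 3956 and 2337, and Spry1, of the Sprouty family, at 3913, 255, 832 and 639. Etv5, a transcription factor induced by ERK, was at 1774, 65.2, 2804 and 1334, with 1490.2 ± 36.8 in Pax5 KO and 949 ± 199.7 in Pax5 WT. In all 3 genes 1301 was lowest, and its level of Etv5 was far below either fetal liver mean. Not every member had this order: Dusp5 was at 214, 2380, 1623 and 1109.9, lowest in 1300, and Emp1 at 9002, 11527, 6324 and 7811 was nearly even. Egr1, an early ERK target, was at 128, 82.5, 104 and 363, below every library of Pax5 KO (25244 to 27580) and Pax5 WT (755 to 1144).

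Cyclin D1, which drives entry into S phase downstream of the same pathway, also had its lowest value in 1301. Ccnd1 was at 4166, 25.8, 4410.2 and 17650, against 626 ± 68.2 in Pax5 KO and 166 ± 15.1 in Pax5 WT, so 1301 was below both fetal liver means and the other 3 above both. Ccnd2 was at 8286, 14323, 14615 and 14823 and Ccnd3 at 12617, 7438, 4418 and 14288, so the 3 D cyclins did not share an order. The CDK inhibitor gene Cdkn2c was at 18544, 1919.7, 1011 and 6148, highest in 1300. Of the 15 cyclin, CDK and inhibitor genes, 4 (26.7%) ranged at least 4-fold, against 16.9% of all genes.

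Genes of the IL-7 receptor pathway and its known targets varied more than the median gene, but the receptor chain itself was even. Il7r, the receptor chain that sustains early B cells, was at 12989, 8843, 9211 and 7427 (SD 0.34 log2), above all 8 fetal liver libraries in every leukaemia. The 13 genes of the receptor, JAK and STAT5 pathway had a median SD of 0.60 log2, against 0.41 over all genes. By range they varied less: 1 (7.69%) ranged at least 4-fold, against 16.9% of all genes. That gene was Jak2, at 1208, 554, 505 and 2315. Of 16 genes known as STAT5 targets, 7 ranged at least 4-fold, against 16.9% of all genes. The feedback inhibitors Cish, at 56.5, 928, 679.8 and 84.4, and Socs2, at 1769.7, 13297, 4549 and 673, were highest in 1301 and low in 1300 and 1308. Bcl2, the survival gene, had the opposite order, at 1561, 101, 1104 and 3883, lowest in 1301 and highest in 1308. Il2ra, another STAT5 target, was at 1863, 2947, 3725 and 1965, above all fetal liver libraries (265 to 337 and 139 to 238) in each leukaemia.

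Genes induced by interferon were lowest in 1300. Type I interferons and interferon gamma act through STAT and IRF factors, the IRF factors bind short repeats of GAAA in promoters, and both interferon types induce a family of immunity-related GTPases. All 13 GTPase genes (the Gbp, Irg and Tgtp genes) passed the filter, and 1300 had the lowest value in each of them. Their median deviation was -1.51, 0.73, 0.37 and 0.37 log2 and their median SD 1.47. Of the 13, 9 (69.2%) ranged at least 4-fold, against 16.9% of all genes. Gbp3 was at 155, 3204, 6101 and 1522, Iigp1 at 68.4, 1618, 2079 and 3842 and Igtp at 1641, 4164, 3964 and 3638. The summed level of the list was 10155, 36203, 46586 and 30265 in the leukaemias, against 7926 to 8568 in Pax5 KO and 10503 to 11398 in Pax5 WT, so 1300 lay near the fetal liver groups and the other 3 above them. Several of these genes are close paralogs, and their separate values are uncertain.

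The type I interferon list gave a similar picture with a different top. Of its 27 genes, 1300 was lowest in 23 and 1308 highest in 14, with median deviations of -1.07, 0.14, 0.20 and 0.84 log2. Of the 27, 15 (55.6%) ranged at least 4-fold, against 16.9% of all genes. Oas1a, a sensor of double-stranded RNA, was at 94.7, 3011, 2063 and 1379.7, and Irf7, the factor that amplifies interferon production, at 463, 2184, 2248 and 6692. Rsad2, which encodes viperin, was an exception at 1473, 477, 319 and 5848, lowest in 1302. Bst2 and Irf7 are also plasmacytoid dendritic markers, and that list summed to 20465, 17244, 23423 and 261090, highest in 1308 and lowest in 1301, while by its median deviation (-1.89, -1.32, -0.61 and 4.35 log2) 1300 was lowest. The part of other cells in these differences was not tested. Of the type I list 6 of 27 genes and of the GTPase list 7 of 13 were called wider than in Pax5 WT, against 37.7% of all genes, so the first share was below and the second above that over all genes. Against Pax5 KO 15 and 9 were called, with 53.4% over all genes.

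Many promoters of these genes hold a GAAA repeat of the kind that interferon factors are known to bind. The motif searched was GAAA, any 2 bases and GAAA again, on either strand (TTTC, any 2 bases and TTTC when it lies on the opposite strand), overlapping matches included, in windows from 250 bases before to 50 after the annotated start, from RefSeq on GRCm38.p6. It was present in 3.44% of all 32851 promoters and in 4.06% of the 8185 genes of this comparison that matched a window. Of the type I list 21 of 27 genes matched and 12 had the motif (57.1%), and of the GTPase list 8 of 13 matched and all 8 had it. Stretches of 4 of these promoters are printed here because their genes were lowest in 1300, with the motif in capitals and each read 5′ to 3′ on the strand of its gene.
Oas1a (chr5:120907526-120907559, minus strand): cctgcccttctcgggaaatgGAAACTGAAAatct
Gbp3 (chr3:142559985-142560034, plus strand): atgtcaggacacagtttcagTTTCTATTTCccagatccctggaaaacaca
Tgtp1 (chr11:48992294-48992343, minus strand): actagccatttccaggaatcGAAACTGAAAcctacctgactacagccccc
Igtp (chr11:58199502-58199551, plus strand): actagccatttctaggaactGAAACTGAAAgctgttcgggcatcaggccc
Where a promoter had 2 matches (Oas1a and Gbp3), the one nearest the start is shown. The motif begins 14, 39, 77 and 34 bases before the start in these 4 promoters. The log2 level in 1300 minus the mean of the other 3 leukaemias was -4.42 for Oas1a, -4.31 for Gbp3, -2.72 for Tgtp1 and -1.25 for Igtp. These 4 come from 17 windows with the motif before the start, and they are not the 4 lowest by that difference. Oas3 (-2.975) and Ifit3 (-2.68), which are not printed, were both lower than Igtp. Rsad2 also has the motif, and its difference was 0.61, in the opposite direction. A link between motif and level was not tested. A match describes the sequence and does not show that a factor bound there.

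Genes of antigen presentation by MHC class II set 1308 apart. H2-Aa, a chain of the class II molecule, was at 617, 573, 1499 and 85258, against 8.19 ± 12.2 in Pax5 KO and 34.7 ± 9.69 in Pax5 WT. Cd74, the invariant chain, was at 1589.6, 3171, 13140 and 207280, and Ciita, the coactivator that switches the class II genes on, at 34.2, 117, 234 and 1942. In all 3 genes 1308 was highest by far, and 1300 or 1301 lowest. The list of 10 class II genes had median deviations of -1.90, -1.04, -0.42 and 3.27 log2. Of the 10, 9 (90%) ranged at least 4-fold, against 16.9% of all genes. H2-Ob was the exception at 5402, 1400.4, 2120.1 and 3549.6, highest in 1300.

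Markers of plasmacytoid dendritic cells moved with the class II genes in 1308. Siglech, their lectin receptor, was at 101, 52.9, 325 and 26551, Ccr9, a homing receptor, at 10.5, 46.8, 1677 and 25992, and Irf8, a factor of dendritic and B cells, at 2735, 3599.5, 2538 and 106750. Of the 14 markers of this list, 12 passed the filter, and all 12 were highest in 1308. A marker can pass the filter through its level in 1308 alone, so this count was partly set by the filter. The conventional dendritic genes Clec9a, at 0, 0, 0 and 798, and Cd209a, at 0, 0, 0 and 1918, were detected in 1308 alone. Macrophage genes such as C1qb, at 881, 1446, 918 and 7062, were also highest in 1308. The T-lineage markers were mixed: Cd3e was at 10.5, 50.5, 128 and 834, and of the 12 that passed the filter 1308 was highest in 7, 1300 and 1301 in 2 each and 1302 in 1, with list sums of 13475, 15811, 7167 and 17606. The part of these other markers in the level of class II genes in 1308 was not tested. B-cell genes that follow the pre-B stage were partly in this pattern, with Cd40 at 7.89, 43.1, 95.5 and 1331 and Ms4a1, which encodes CD20, at 0, 151, 4.96 and 685.

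Granulocyte and red cell genes formed the block shared by 1300 and 1308. S100a8, a neutrophil calcium-binding protein, was at 67554, 1190, 86.8 and 77275, against 155 ± 26.6 in Pax5 KO and 0 in all Pax5 WT libraries. Camp, a peptide of neutrophil granules, was at 12484, 206, 4.96 and 10778, and Elane, neutrophil elastase, at 1081, 12.3, 7.44 and 2159. For all 3 genes, 1300 and 1308 lay far above 1301 and 1302. All 17 of the 17 granulocyte and monocyte genes that passed the filter ranged at least 4-fold, against 16.9% of all genes. A gene can pass through its level in 1300 or 1308 alone, so this count was partly set by the filter. Ctsg was an exception in order, at 494, 5652, 0 and 1061, highest in 1301, as was the neighbouring basophil gene Mcpt8 at 313, 1623, 0 and 365.

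Beta globin Hbb-bs was at 242010, 24039, 18622 and 562910, while it was at or near 0 in the fetal liver groups (0 to 2.17 in Pax5 KO and 0 to 0.86 in Pax5 WT). Klf1, the erythroid transcription factor, was at 613, 2.46, 16.1 and 361. The adult globins were present in all 4 leukaemias, and for each of them 1300 and 1308 lay above 1301 and 1302.

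**Figure D4:**
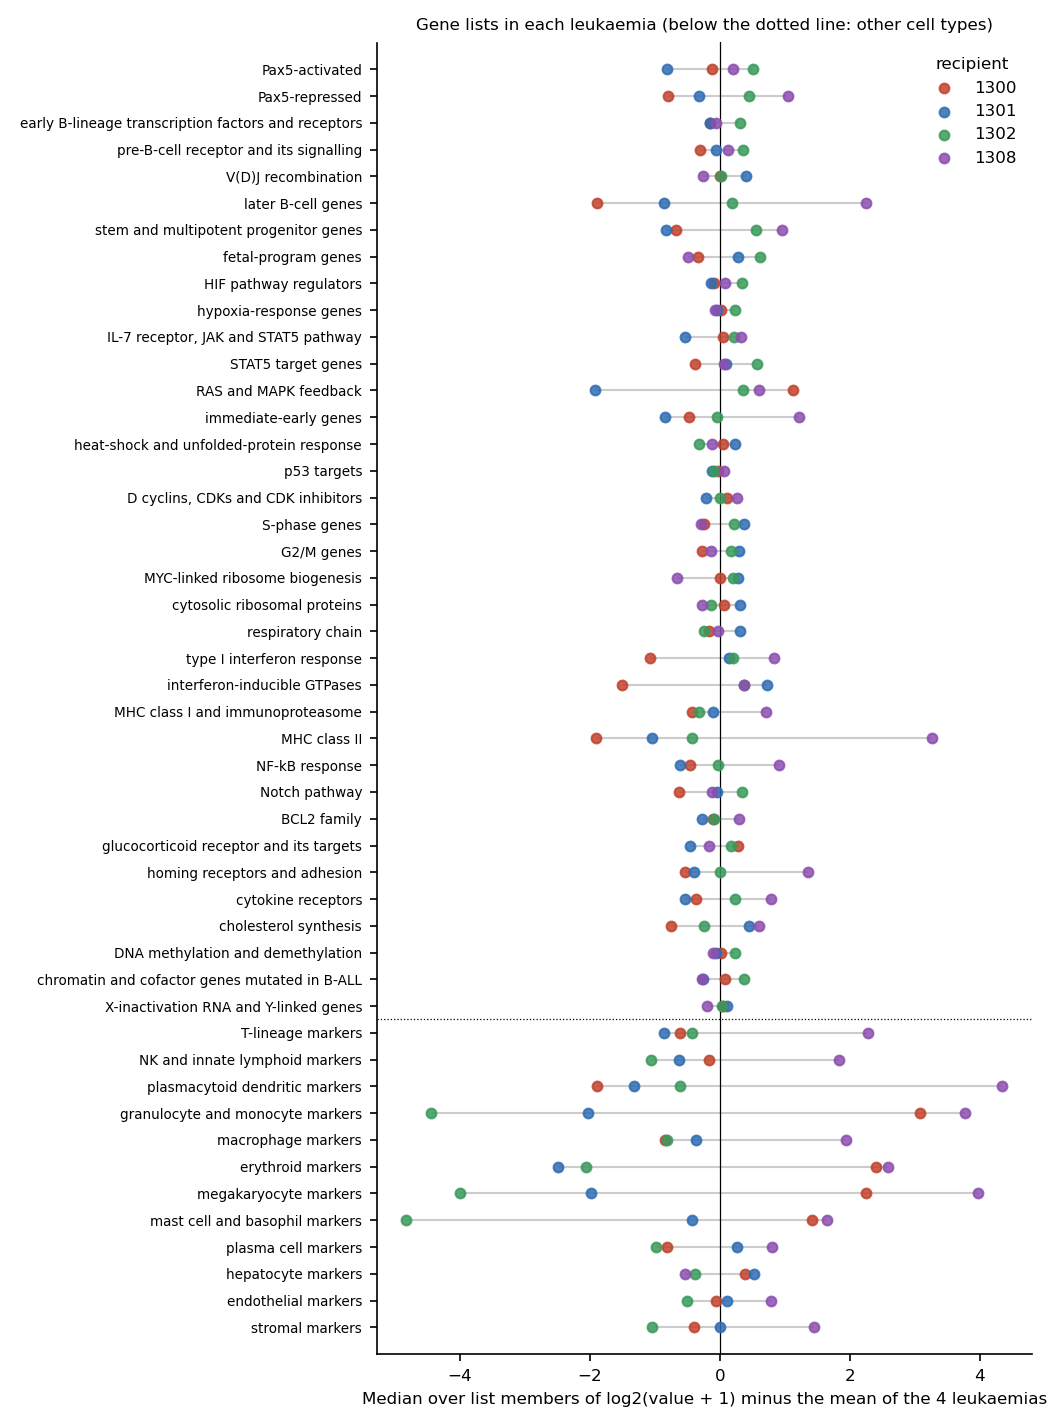
Median deviation of each gene list from the mean of the 4 leukaemias, in log2 units, with 1 point for each leukaemia. The points of 1308 lie far to the right for plasmacytoid dendritic (4.35), class II (3.27) and T-lineage (2.29) genes, 1301 lies low for RAS and MAPK feedback (-1.93), and the 4 points nearly coincide for ribosomal proteins.

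Genes of translation, respiration, DNA replication and mitosis differed little. The 40 cytosolic ribosomal protein genes had a median SD of 0.29 log2, the 25 S-phase genes 0.35, the 30 respiratory chain genes 0.35 and the 28 G2/M genes 0.38, all below the median of 0.41 over all genes. None of these genes ranged at least 4-fold. Leukaemia 1301 was highest in 33 of the 40 ribosomal genes, 18 of the 25 S-phase genes and 18 of the 28 G2/M genes, with median deviations of 0.32, 0.37 and 0.30 log2. The share of all genes that were highest in 1301 is not given here. Ribosomal and respiratory chain genes are short, and 1301 was also higher in short genes overall: with genes in 5 equal groups by exon length, its median deviation in the longest group minus that in the shortest was -0.29, against 0.43 in 1302, -0.18 in 1308 and 0.00 in 1300. The part of gene length in these list values was not tested. The growth regulator Myc was at 14105, 13595, 20282 and 4929, and of the 20 genes of MYC-linked ribosome biogenesis 1308 was lowest in 15, with a median deviation of -0.66 log2.

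HIF factors, which adapt cells to low oxygen, were among the even genes. Hif1a was at 3749.8, 3495, 4272 and 3595 (SD 0.13 log2). Epas1, which encodes HIF-2 alpha (ENSMUSG00000024140), was at 134, 132, 176 and 205 (SD 0.31), against 5.14 ± 3.12 in Pax5 KO and 6.74 ± 4.83 in Pax5 WT, so all 4 leukaemias lay above all 8 fetal liver libraries. In the list of 11 HIF regulators the median SD was 0.51 log2, and in the 24 hypoxia-response genes it was 0.42. Individual members still ranged widely. Egln3, a hydroxylase that is itself induced by HIF, was at 27.6, 1659, 362 and 314, lowest in 1300 and highest in 1301. Vegfa, the vascular growth factor, was at 116, 1619.5, 1551 and 123, low in 1300 and 1308, and the stress gene Ndrg1 was at 1686, 518, 135 and 2198, low in 1302.

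Along the chromosomes, the longest run of low windows was in 1308. The 10194 genes were placed in chromosome order and scanned in windows of 40 neighbouring genes, 9402 windows per library, taking the median of the log2 difference from the median of the other 3 libraries of the group. In 1308, 111 windows on chromosome 14 were at or below -0.5, covering 150 neighbouring genes from Rpgrip1 to Tsc22d1, with a lowest window of -1.04. Over these 150 genes the median in 1308 was -0.79, against 0.12, 0.10 and 0.12 in 1300, 1301 and 1302. Leukaemia 1308 was lowest in 101 of the 150 genes, against 75 of the 206 other genes of the chromosome, whose median was -0.13. The stretch was found by its values, so these numbers describe it and test nothing. In the fetal liver libraries all windows of the genome lay between -0.26 and 0.18.

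The stretch was also low against the fetal liver groups, with medians of -0.61 from the Pax5 WT mean and -0.73 from the Pax5 KO mean in 1308, against 0.00 to 0.13 and -0.05 to 0.02 in the other leukaemias. Among its 135 genes with a mean of at least 100 in each group, the median in 1308 was -0.84. Not all of its genes were low: Rb1, the retinoblastoma gene, was at 1106, 499.6, 960.2 and 1158, highest in 1308, and Fndc3a at 1363, 1384, 1403 and 1410.2 was nearly even. Blk, a kinase of B cells in the stretch, was at 4519, 5069, 9803 and 2665, lowest in 1308, and Fdft1, of cholesterol synthesis, at 831, 1381, 819 and 1061, was not. Shorter runs past 0.5 were a high run of up to 0.70 over 66 genes of chromosome 17 in 1308, which includes MHC class II genes, high runs of up to 0.59 on chromosome 6 in 1308 and 0.53 on chromosome 2 in 1302, and a low run of -0.54 over 48 genes of chromosome 4 in 1301. DNA copy number was not measured.

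**Figure D5:**
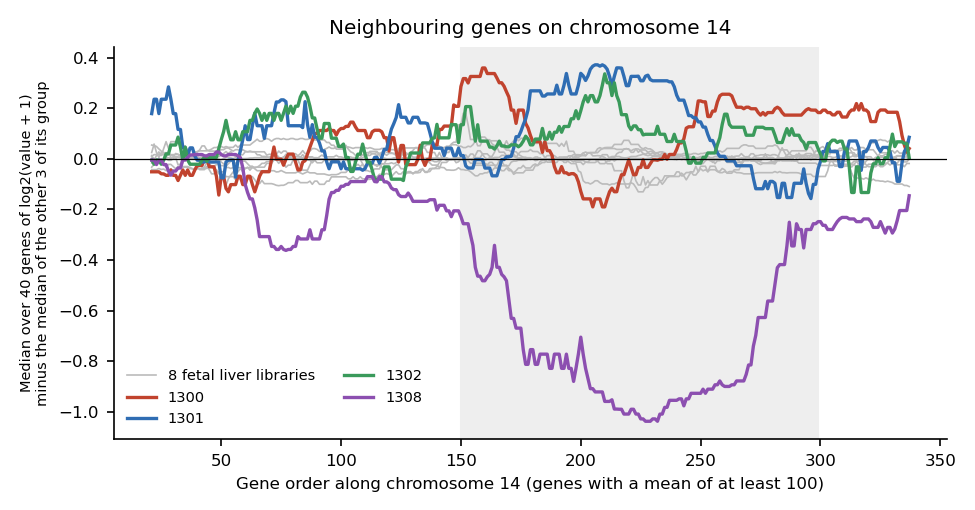
Median log2 difference of each leukaemia from the other 3 in windows of 40 neighbouring genes along chromosome 14, by gene order; the grey band marks the 150 genes from Rpgrip1 to Tsc22d1. The line of 1308 drops to -1.04, while the other 3 leukaemias stay between -0.19 and 0.37 and the 8 fetal liver libraries (grey lines) between -0.13 and 0.18.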

How the data were processed

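RNA-seq was measured in 12 mouse libraries in 3 groups of 4, each library assigned from its title. Sorted cells were lysed for column extraction of RNA and the SMART-Seq v4 chemistry was used, per the labels' protocols; it gives full-length cDNA without strand marks. The submitters' processing notes name mm39 as the build and, as tools, STAR 2.7.8a, fastp and featureCounts. Not given in the sources used here were annotation, strand setting and the treatment of multimapping reads. The deposited signal values are read counts that the authors had scaled by 1 factor per library (0.722 to 1.38): 100% of them were whole multiples of that factor within a tolerance of 0.001. Dividing by it gave the reads used for depth and for the floor of 3 reads at a count of 0, which covers counting error only.

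Symbols, exon lengths and gene order came from GENCODE M21, an older build, for 21780 of 21885 identifiers. Analyses used log2(value + 1). The main test was limma 3.58.1 (moderated, trend and robust, two-sided) in R 4.3.3 on absolute deviations from the group mean times the square root of n over n minus 1, with Benjamini-Hochberg adjustment over 10194 genes. With edgeR 4.0.16, TMM and upper quartile factors and the coefficient of variation were computed on recovered reads. No fold change between single leukaemias was tested; Dixon's test was used to screen for 1 leukaemia far from the other 3. On simulated data with 200 genes wider and 1 spread for all other genes, the test recovered 34% and 31% of genes spread 4 times wider. It recovered 63% and 64% of those spread 8 times wider, against Pax5 WT and Pax5 KO in that order. Of the calls in either direction, 207 of 304 and 146 of 241 were false.

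The genes, lists and tests were chosen with earlier results of these data known. Genes named by rule were 12 fixed genes, the 20 with the largest SD, up to 6 per pattern of separation, the 10 with the smallest SD at a mean of at least 1000, and in each list the 3 widest and 2 narrowest. Other list members were named after their values were seen. Some genes that these rules select are not reported here. Lists for 36 programmes and 12 other cell types were used. Alternatives covered the pseudocount, the filter, the scaling, gene length, the form and libraries of the test and leaving out libraries.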

Additional observations from a re-analysis of the deposited data

Results flagged for a closer look

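Within the leukaemias, 83 sets of 4 values were screened for a single value far from the other 3 (12 genes, 48 gene lists, 20 chromosomes and 3 library measures), and 4 passed the 95% limit of Dixon's test, which chance passes in about 1 of 20 sets. The median deviation of the interferon-inducible GTPases was lowest in 1300 at -1.51, with the others between 0.37 and 0.73 log2. The median deviation of the T-lineage markers was highest in 1308 at 2.29, with the others between -0.85 and -0.43. Only the 12 members that passed the filter enter this median, and 1308 was highest in 7 of them. A member can pass through its level in 1308 alone, so this value was partly set by the filter. The median over chromosome 14 was lowest in 1308 at -0.24, with the others between 0.08 and 0.10, and it includes the stretch of 150 genes described above. The median over chromosome 9 was lowest in 1300 at -0.060, a small difference from the others, which were between 0.0013 and 0.014.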

How the results depend on the processing

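No paired analysis was possible because the recipients' numbers are shared with neither fetal liver group. Direction was checked for the distance of a library from its group and for the stretch on chromosome 14, and neither was reversed. For other results it was not checked. Of the chromosome medians under other settings, 79 moved by at least their SD over the 4 leukaemias and 161 did not. The counts of narrower genes moved in 24 cases and stayed similar in 24. The counts of genes wider than in Pax5 WT and Pax5 KO were 2464 and 3596 at a mean of at least 1000, 431 and 562 with squared deviations, and 0 and 0 with the 8 libraries of a pair alone. With no filter on low values 5998 genes were wider than in Pax5 WT, and 644 and 795 narrower than in Pax5 WT and Pax5 KO. Leaving out 1 library gave 1451 to 5296 and 2874 to 6379. The median SD over the leukaemias was 0.36 at a mean of at least 1000, 0.38 with that of at least 100 in each group, 0.55 with no filter, 0.31 without recipients 1300 and 1308, and 0.37 to 0.41 without 1 recipient. In the same order, genes ranging at least 4-fold numbered 502, 824, 5311, 349 and 967 to 1556, and genes with a gap of at least 4-fold 236, 288, 3303, 349 and 641 to 1036. The permutation p for the distance of a library from its group was 0.0571 without 1 recipient, the smallest that 3 against 4 allows, and 0.133 without 1300 and 1308, in both comparisons. The median of the stretch on chromosome 14 in 1308 was -0.76 to -0.75 without 1 of the other recipients. TMM and upper quartile scaling and a pseudocount of 5 did not move the counts of wider genes. Nor did they move the median SD or the counts by range and gap. The permutation p stayed at 0.0286 with TMM factors and with that pseudocount, and was not computed with upper quartile scaling. The stretch on chromosome 14 was not recomputed with any of these settings. The cause was not tested, except that the filters and omissions change which genes and libraries enter. Depth limits genes near 0, where a few reads set the SD.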

Other observations

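Further gene groups of the leukaemias are given here as values. Jchain, which encodes the joining chain of secreted antibodies, was at 5689, 229680, 2781 and 64147, against 107450 ± 5136 in Pax5 KO and 125 ± 41.6 in Pax5 WT. Only 1301 was above Pax5 KO, and the other plasma cell genes did not share this order, with Xbp1 at 4766, 8511, 4311 and 18525 and Sdc1 at 2006, 207, 269 and 1143. Genes of cholesterol synthesis were lowest in 1300 in 14 of 17 cases, with median deviations of -0.74, 0.45, -0.24 and 0.61 log2. Msmo1, a sterol demethylation enzyme, was at 1659, 6413, 2130 and 5430.3, and Idi1, of the isoprenoid steps, at 602, 2915, 882 and 1468. The range of this list was modest: 3 of 17 genes (17.6%) ranged at least 4-fold, close to the 16.9% of all genes.

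Apoptosis genes differed in a few members. Bok was at 2472, 949, 114 and 24.9, highest in 1300 and lowest in 1308, while the BH3-only gene Bmf was at 422, 89.8, 292 and 118 and Mcl1 at 7753, 9967, 9986 and 12060. Tet1, a DNA demethylation enzyme, was at 568, 297, 14.9 and 554, low only in 1302, and Dnmt3a, a DNA methyltransferase, at 1653, 538, 3544 and 1299.5, highest there. Among cytokine receptors, 1308 was highest in 13 of 22 genes, and the share over all genes is not given here. Il6ra was at 13.1, 14.8, 593 and 505 and Csf2rb2 at 43.4, 140.3, 349 and 2562. Dlk1, a gene of the fetal programme, was at 227, 287, 6.2 and 0, higher in 1300 and 1301 than in 1302 and 1308, and below Pax5 KO (2354 ± 78.6) in all 4.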
